A study of Mus musculus with 30 samples.

Results

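The change in gene expression between 6 h and 24 h of exposure to the lower doses of cannabidiol (CBD) was examined in mHypoA-2/12 cells, an immortalized line derived from adult mouse hypothalamus. The members were chosen by their labels: the 9 libraries of cells kept for 24 h in CBD at 0.325, 0.75 or 1.5 µM were compared with the 9 libraries of cells kept for 6 h at the same doses, that is 18 of the 30 libraries of the series. There were 3 libraries for each dose and time. Dose entered the main fit as a blocking factor, so that 24 h was compared with 6 h within each dose. Tests of single doses and of differences between groups used a mean for each group of dose and time. All cells, those given vehicle included, were exposed to dimethyl sulfoxide (DMSO), in which CBD was dissolved, and were moved to the treatment medium on the day after a set confluency was reached. The cells are 1 immortalized line, and nothing in the labels says whether the 3 libraries of a group came from separate cultures, so p-values measure only the spread between these libraries. Time in CBD cannot be told apart from time in culture in this comparison alone. The same change was therefore also measured in the 6 vehicle libraries (CTR) and the 6 libraries of 3 µM CBD, and the difference was tested.

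CBD is a non-intoxicating compound of Cannabis that binds the classical cannabinoid receptors weakly and acts on a range of channels, transporters and nuclear receptors. Cells that are fed and then left in the same medium use up nutrients and growth factors. Genes for ribosome production, amino acid supply and protein folding follow growth signals, whereas lysosome and autophagy genes and cyclin-dependent kinase inhibitors are known to be induced when such signals are withdrawn. The sources used here do not state whether the treatment medium held serum. The part of the medium in the changes described here was not tested.

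Libraries were made with a 3′ tag protocol, in which each polyadenylated transcript gives reads near its 3′ end. The reads counted on genes were between 2312145 and 3274523 per library at 6 h and between 2192094 and 4420675 at 24 h, and did not differ between the times (exact permutation test within dose, two-sided, p = 0.0942). Of 6 measures of library quality tested, 2 differed between the times. The share of gene reads that lay on the mitochondrial genome was 8.33% ± 0.538 (SD, n = 9) at 6 h and 7.56% ± 0.255 (SD, n = 9) at 24 h (exact permutation p = 0.001, adjusted over 6 measures 0.003). The share taken by the 10 most abundant genes was 12.8% at 6 h and 11.2% at 24 h (exact permutation p = 0.00025, the smallest the 8000 arrangements can give, adjusted 0.0015). The number of genes with reads did not differ beyond the spread of the libraries (17390 against 17460 on average, exact permutation p = 0.714). The labelled cell type was checked against markers, with levels in CPM, the usual scale of counts relative to the library total. Mesenchymal markers (such as Col1a1 and Acta2, each at 1643 CPM or more) summed to between 5735 and 7845 CPM at 6 h and between 6432 and 7499 at 24 h, with reads for 14 of 14 members. Of these, Lum reached at most 3.46 CPM, Fap 2.545 CPM and Dcn 27.5 CPM. The 20 neuronal markers summed to between 191 and 226.9 CPM at 6 h and between 167.5 and 205.4 CPM at 24 h. Among them Tubb3 reached at most 67.1 CPM, Nefm 58.2 CPM, Eno2 47.4 CPM and Map2 35.1 CPM. Dcx, Gad1, Slc32a1 and Snap25 had no read in any of the 18 libraries. Astrocyte markers lay between 68.3 and 114 CPM at 6 h and between 76.6 and 102 CPM at 24 h (Aqp4 at 0), and endothelial markers between 62.7 and 134 and between 57.7 and 83.0 CPM (Cldn5 at 0). The 8 oligodendrocyte markers lay between 10 and 18.1 CPM at 6 h and between 24.1 and 38.2 CPM at 24 h, nearly all of it from Cnp, while Olig1, Olig2 and Sox10 had no read. Microglial markers, nearly all of it Tmem119, lay between 194 and 348 CPM at 6 h and between 284 and 346 CPM at 24 h, with C1qa, C1qb and Tyrobp at 0. Neural progenitor markers lay between 2142 and 2880 CPM at 6 h and between 2059 and 2506 CPM at 24 h. Most of this was Vim (between 1854 and 2594 CPM and between 1784 and 2225 CPM), which mesenchymal cells also express. Nes lay between 116 and 190 CPM at 6 h and between 82.6 and 152 CPM at 24 h. Sox9 lay between 105 and 332 CPM and between 143 and 211 CPM. Sox2 was at most at 17.3 CPM, Pax6 at most at 9.28 CPM and Hes5 at 0.

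Time was the main axis on which these libraries differed. The first principal component took 37.9% of the variance, and the 9 libraries of 6 h (from -44.2 to -18.0) lay apart from the 9 of 24 h (from 18.8 to 40.6) on it. On the second component, with 7.65% of the variance, 1 library of 0.325 µM at 6 h (replicate 2) stood apart from the others at -44.4. Placed on the first component of the 18 libraries after these values were seen, 1 library of 3 µM at 24 h (replicate 1) also stood apart. Its score was -9.40, the only one below 0 among the libraries labelled 24 h, while replicates 2 and 3 of that group lay at 26 and 9.13 and the 3 vehicle libraries of 24 h between 7.89 and 25.2. List medians and gene counts at 3 µM are therefore given with and without this library, while values of single genes at 3 µM include it.

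**Figure D1:**
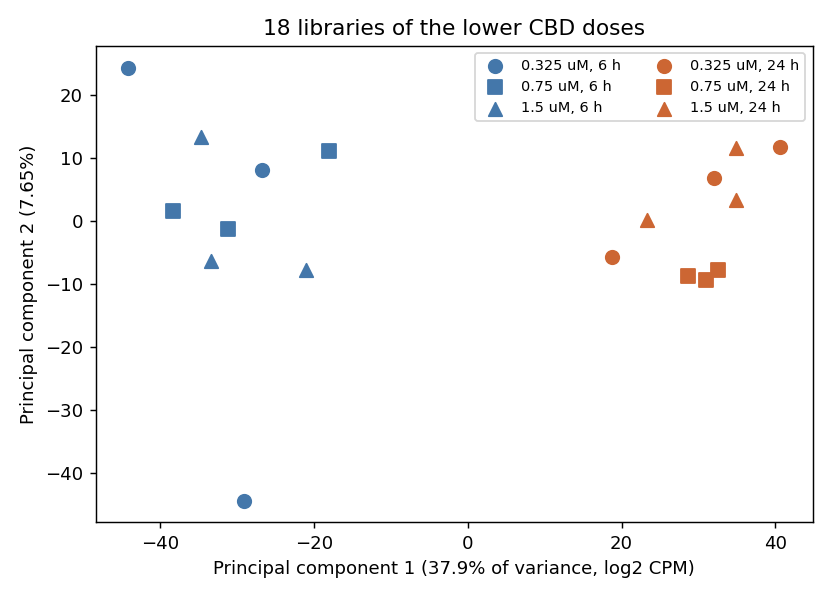
Principal components of log2 CPM in the 18 libraries, with the first component (37.9% of the variance) on the horizontal axis and the second (7.65%) on the vertical axis, each point a library coloured by time and shaped by dose. All 6 h libraries lie below 0 and all 24 h libraries above 0 on the first component.

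Of 12295 genes tested, 6646 (54.1%) changed between 6 h and 24 h at a false discovery rate (FDR, Benjamini-Hochberg adjusted p of the edgeR quasi-likelihood test) under 0.1. Of these, 3368 (27.4% of genes tested) were higher and 3278 (26.7%) lower at 24 h. These shares are the background against which the gene groups described here are read. The median change over all tested genes was 0.015 on the log2 scale, and every change given is log2 of 24 h over 6 h unless said otherwise. Most changes were small, with a median size of 0.55 among the genes that passed. At least 2-fold changes were found for 1199 of them, 522 higher and 677 lower. For 643 genes (5.23%) all 9 libraries of 24 h lay above all 9 of 6 h, and for 626 (5.09%) all lay below. The change had the same sign at each of the 3 doses for 6370 of the 6646 genes. Without replicate 2 of 0.325 µM at 6 h, 6737 genes passed.

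The largest rise was that of Cyp26b1 (chr6:84571414-84593908, minus strand, GRCm38), which encodes the cytochrome P450 that breaks down retinoic acid. Its level was 6.80 CPM in the lowest, 14.3 in the median and 29.2 in the highest library at 6 h, and 77.9, 117 and 138 CPM at 24 h. The groups did not overlap, and the gene rose by 2.76 ± 0.16 (SE) on the log2 scale (edgeR FDR = 1.2e-15). Cdo1, the cysteine dioxygenase that starts cysteine catabolism, went from 8.93, 15.6 and 28.9 CPM (lowest, median, highest) to 71.1, 106 and 119 CPM, again without overlap (2.52 ± 0.14). Slc24a3, a sodium, calcium and potassium exchanger, went from 28.8, 34.7 and 45 CPM to 165, 185 and 217 CPM (2.44 ± 0.09). Both genes were thus higher in every 24 h library than in any 6 h library.

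Several of the other genes among the 12 largest rises encode secreted or signalling proteins. Rspo2 and Rspo1, secreted proteins that strengthen Wnt signalling, rose by 2.38 and 1.96. Rspo2 was found at 12.8, 19.5 and 25.5 CPM at 6 h and at 67.5, 101 and 122 CPM at 24 h. Adamts1 (chr16:85793827-85803113, minus strand, GRCm38), a secreted protease that cleaves versican, was the most abundant of the 12, at 77.4, 111 and 128 CPM at 6 h and 388, 447 and 573 CPM at 24 h. The proteoglycans osteomodulin (Omd, 2.49) and asporin (Aspn, 2.0), both of the small leucine-rich family that binds collagen, were 2 further members. The others were the transcription factor Osr2 (2.40), the prostaglandin F receptor Ptgfr (1.88), Elobl (2.55) and Ypel1 (2.10).

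**Figure D2:**
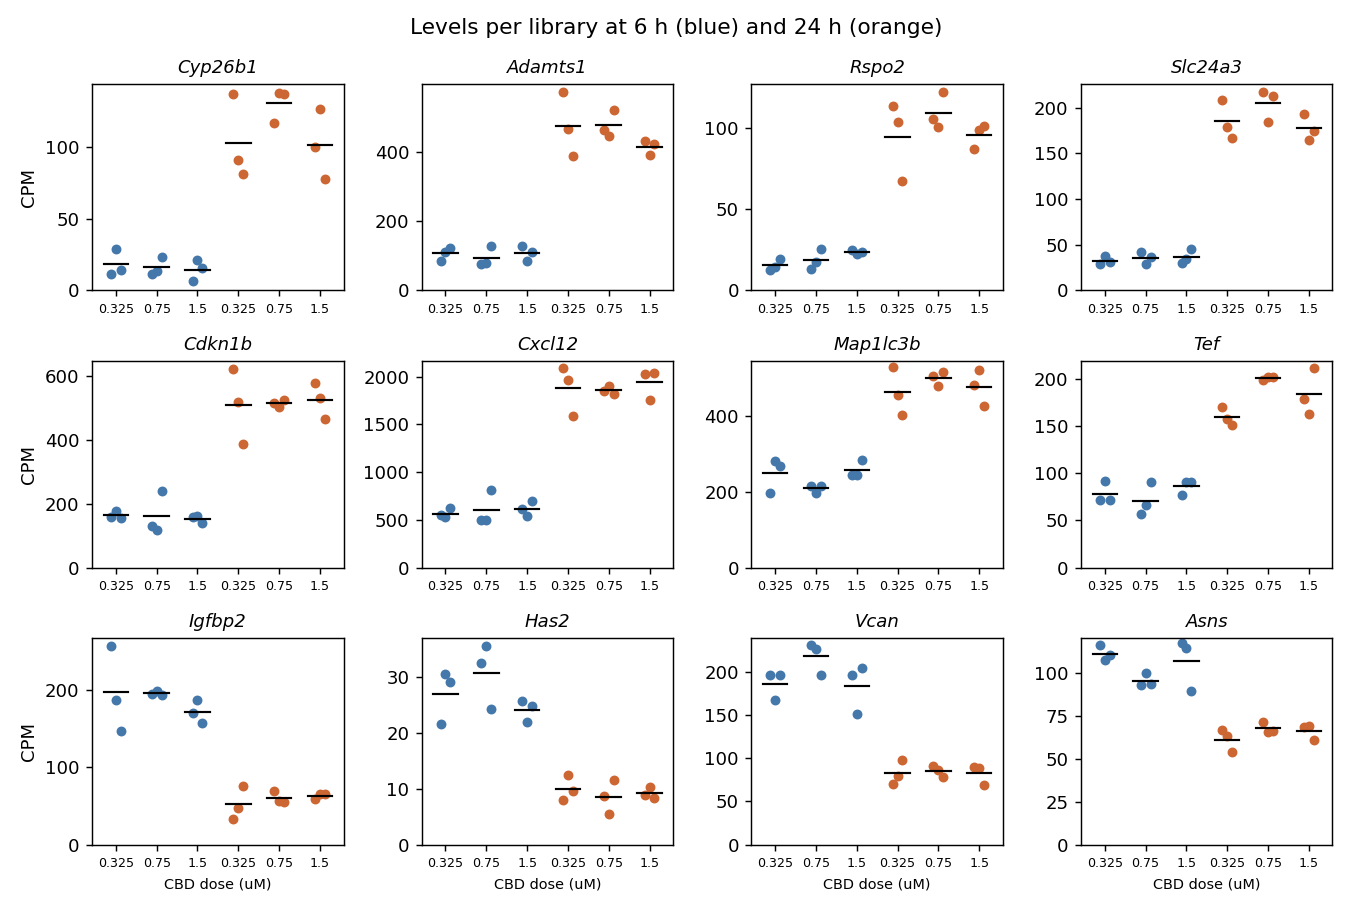
Level in CPM of 12 genes named in the text at 0.325, 0.75 and 1.5 µM CBD, with each point a library, blue for 6 h and orange for 24 h, and a line at the mean of 3 libraries. Cyp26b1, Adamts1, Rspo2 and Slc24a3 lie higher in each 24 h library, and Igfbp2, Has2 and Vcan lower, at all 3 doses.

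The falls were led by another class of gene. Of the 12 genes with the largest fall, 11 were annotated as processed pseudogenes, which are copies of spliced transcripts inserted in the genome, and these are described further on. The other was Akr1c18, which encodes the enzyme that inactivates progesterone. It was at 15.4, 26.4 and 36.6 CPM at 6 h and at 3.57, 5.45 and 10.5 CPM at 24 h, without overlap (-2.14 ± 0.19).

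Falls among protein-coding genes were listed after the values were seen, by the same rule. Absence of overlap was thus a condition for entering this list. Igfbp2 (chr1:72824503-72852474, plus strand, GRCm38), a binding protein of insulin-like growth factors, went from 148, 187 and 257 CPM to 33.3, 58.9 and 75.9 CPM (-1.69 ± 0.11). Has2, which makes hyaluronan, went from 21.5, 25.6 and 35.4 CPM to 5.45, 8.93 and 12.4 CPM (-1.55). For both genes every 24 h library was below every 6 h library. The nuclear receptor Nr5a2 (-1.76), the metallothionein Mt4 (-1.85), the homeobox gene Hoxc6 (-1.50), the semaphorin Sema7a (-1.50), the stromelysin Mmp10 (-1.55) and the collagen-triple-helix protein Cthrc1 (-1.45) also fell without overlap. Profilin 1 (Pfn1, -1.80), Rpl39l (-1.41) and Olfr620 (-1.49) were in the same list, and Rpl39l is a paralog of the ribosomal protein gene Rpl39.

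The fall of pseudogenes was general. Of 626 processed pseudogenes tested, 503 (80.4%) were lower at 24 h and 20 higher, against 26.7% and 27.4% of all tested genes, and their median change was -1.11. All 9 libraries of 24 h lay below all 9 of 6 h for 167 of them. Among 10667 protein-coding genes 3121 were higher and 2592 lower, with a median of 0.04. The share of gene reads that lay on processed pseudogenes was 2.87% in the lowest, 3.45% in the median and 3.96% in the highest library at 6 h, and 1.73, 2.19 and 2.34% at 24 h. The times did not overlap in this share.

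Each tested pseudogene was aligned to the annotated transcripts, and 589 had a tested protein-coding gene as their closest match (245 distinct genes, median identity 95.6%). Among these 589, 472 pseudogenes were lower and 16 higher, with a median of -1.09. Their matched genes were lower for 95 and higher for 50, with a median of -0.07. In 535 of 589 pairs the pseudogene's change was below that of its match. Matches to genes of cytosolic ribosomal proteins made up 333 of the pairs, and 266 of those pseudogenes were lower (median -1.07).

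An example is Gm6109, which is 96.6% identical to Rpl30, a protein of the large ribosomal subunit. Gm6109 was at 122, 187 and 303 CPM at 6 h and at 37.5, 44.6 and 63.8 CPM at 24 h (-2.02 ± 0.13). Rpl30 itself was at 256, 360 and 511 CPM and at 287, 341 and 370 CPM (-0.09 ± 0.09, edgeR FDR = 0.398), so its groups overlapped and it did not pass the test. Gm14892 fell by 2.03, from 79.9, 108 and 227 CPM to 22.5, 31.1 and 44.6 CPM, while its closest match, the tubulin gene Tuba1a, rose by 0.76. Gm12482 fell by 2.19, and its match Naca, a chaperone subunit that binds nascent chains, had a change of -0.04 (edgeR FDR = 0.740).

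Reads of such near-identical copies can be split between the genes. Beside the fall of pseudogenes, the number of alignments reported by the counter as not unique moved in the same direction, from 31.0, 32.8 and 35.9 per 100 gene reads at 6 h to 28, 28.6 and 30.1 at 24 h, without overlap. The part of read assignment in the pseudogenes' fall was not tested. The processed pseudogenes also had a negative median change in the vehicle libraries (-0.92) and at 3 µM (-0.45, or -0.85 without replicate 1 at 24 h and -0.23 without replicate 2 at 24 h).

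**Figure D3:**
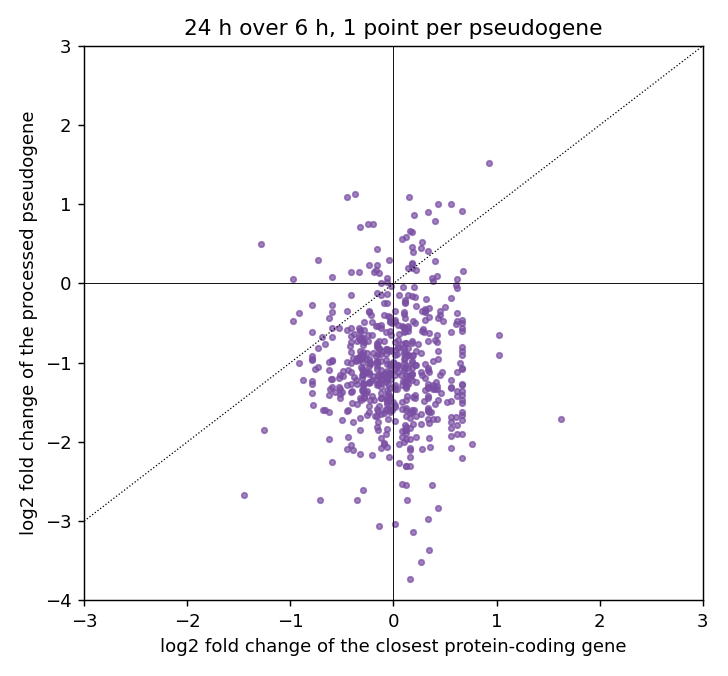
Change of 589 processed pseudogenes (vertical axis, log2 of 24 h over 6 h) against the change of the protein-coding gene each matches most closely (horizontal axis, same scale), each point a pair. Of the pairs, 535 lie below the diagonal, with medians of -1.09 for pseudogenes and -0.07 for their matches.

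Genes for making ribosomes were lower at 24 h. Of 45 tested genes of ribosome biogenesis, 39 fell and 1 rose (26.7% and 27.4% of all genes), with a median of -0.53. Ddx21, an RNA helicase of the nucleolus, was at 342, 407 and 491 CPM at 6 h and at 203, 254 and 303 CPM at 24 h (-0.71). Dkc1, the pseudouridine synthase that modifies ribosomal RNA, went from 236, 307 and 358 CPM to 139, 165 and 213 CPM (-0.75). Neither gene's groups overlapped, and 16 of the 45 members fell in this way. The largest changes in the list were those of Gar1 (-0.92), a partner of Dkc1, Wdr75 (-0.90), Ltv1 (-0.89) and Rrs1 (-0.88), which act in assembly of the subunits. The fit over all 30 libraries gave medians of -0.55 for the lower doses, -0.61 for vehicle and -0.21 for 3 µM (-0.27 without replicate 1 at 24 h).

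The ribosomal proteins themselves did not follow this pattern as a group. Of 79 tested, 27 fell and 20 rose, with a median of -0.04. Rpl34 (563, 795 and 1168 CPM to 373, 390 and 465 CPM, -0.98) and Rps13 (862, 1159 and 1462 CPM to 605, 670 and 806 CPM, -0.73) fell without overlap. Both have many processed pseudogenes, so their counts depend on how reads of copies were assigned.

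**Figure D4:**
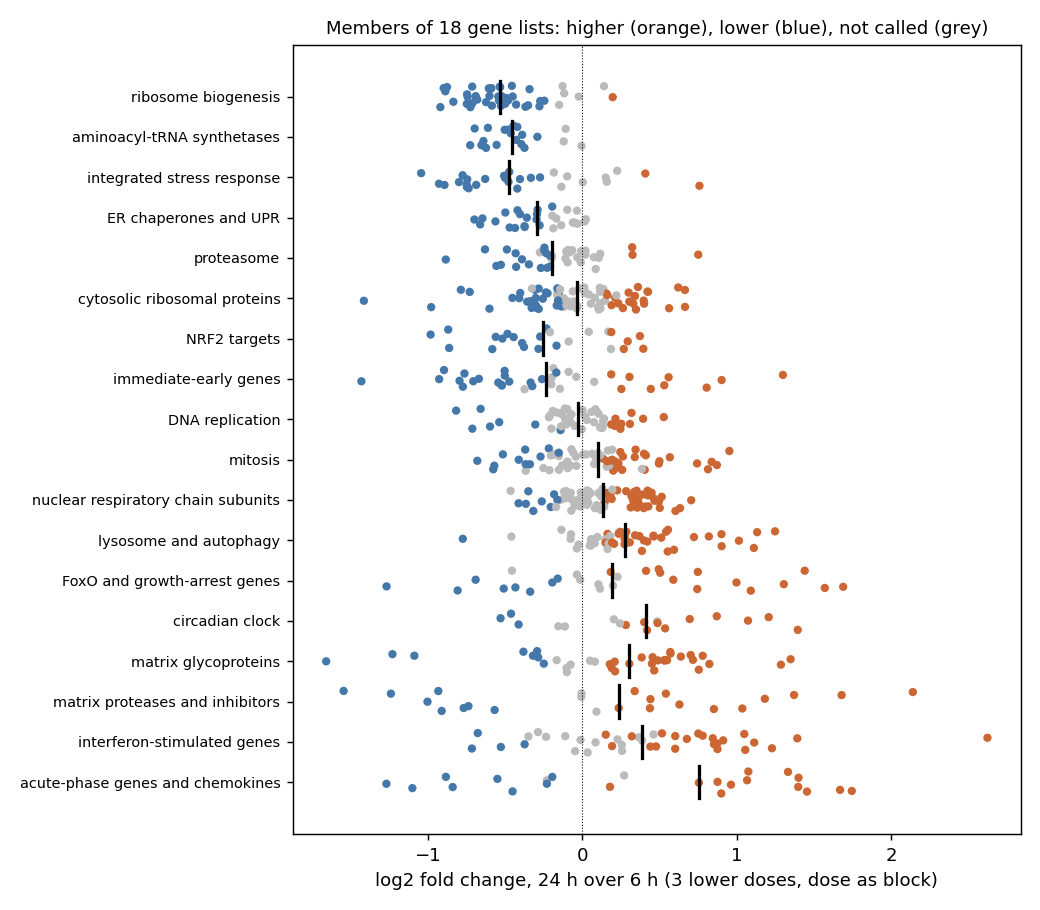
Change over time (log2 of 24 h over 6 h, horizontal axis) of the tested members of 18 gene lists, each point a gene, orange where higher, blue where lower and grey where not past the test, with a black bar at the list's median. Ribosome biogenesis (median -0.53) and aminoacyl-tRNA synthetases (-0.45) lie on the left, and lysosome and autophagy genes (0.27) on the right.

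Aminoacyl-tRNA synthetases, which load amino acids onto transfer RNA, fell in 17 of 20 cases and rose in none, with a median of -0.45. In vehicle the median was -0.51 in the fit over 30 libraries, against -0.46 at the lower doses. Nars, for asparagine, was at 294, 383 and 429 CPM at 6 h and at 216, 239 and 277 CPM at 24 h (-0.64). Dars, for aspartate, went from 60.6, 65.8 and 79.7 CPM to 31.3, 37.9 and 54.0 CPM (-0.73). These genes and Iars (-0.65) had no overlap between times, whereas Cars (-0.70) did.

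Several synthetase genes are also targets of ATF4, the transcription factor of the integrated stress response. Cells use this response to raise amino acid synthesis and uptake under stress. Of 28 tested genes of the response, 19 fell and 2 rose, with a median of -0.48. The fallers included enzymes of serine and one-carbon metabolism. Psat1 went from 284, 312 and 372 CPM to 173, 181 and 227 CPM (-0.74), and Mthfd2 from 218, 268 and 309 CPM to 133, 158 and 184 CPM (-0.74). Asns, which makes asparagine, went from 89.6, 107 and 117 CPM to 53.6, 66.2 and 71.3 CPM (-0.69). None of these 3 overlapped between times. Atf4 itself fell by 0.33 with overlapping groups. The largest falls in the list were those of the lipoprotein receptor Vldlr (-1.04), the serine enzyme Psph (-0.93), the secreted Stc2 (-0.89) and the amino acid transporter Slc7a5 (-0.80). The genes that rose were Ddit3 (0.76), a transcription factor linked to cell death, and Nupr1 (0.41), named after their values were seen. Ddit3 was at 11.6, 19.6 and 26.4 CPM at 6 h and 22.3, 32.3 and 47.5 CPM at 24 h. The list's median was -0.80 in vehicle and -0.39 at 3 µM in the fit over 30 libraries (-0.26 without replicate 1 of 3 µM at 24 h).

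ATF4 acts through short elements, and stretches of the promoters of 4 falling members are shown so that a match can be seen in its place. The letters TGATGNAA were searched on both strands in the 250 bases before the start of each gene in RefSeq (GRCm38.p6). They occurred in 6 of 24 members with a window (Asns, Chac1, Nupr1, Pck2, Slc7a11 and Vldlr), in 3.91% of all promoters and in 2.36% of those of tested genes. A match is a description and not a site of binding, and Nupr1, which rose, holds one too. Capitals mark the match or its reverse complement, and each stretch is written 5′ to 3′ on the gene's strand, for Vldlr chr19:27216774-27216873 (plus), Slc7a11 chr3:50443617-50443716 (minus), Asns chr6:7693210-7693309 (minus) and Chac1 chr2:119351003-119351102 (plus).
Vldlr: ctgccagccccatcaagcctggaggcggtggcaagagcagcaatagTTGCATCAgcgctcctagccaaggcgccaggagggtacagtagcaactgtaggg
Slc7a11: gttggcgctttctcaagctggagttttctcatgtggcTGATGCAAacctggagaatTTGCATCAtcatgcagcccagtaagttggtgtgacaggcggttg
Asns: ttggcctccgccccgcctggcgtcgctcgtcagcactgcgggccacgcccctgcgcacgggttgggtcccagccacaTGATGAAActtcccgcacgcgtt
Chac1: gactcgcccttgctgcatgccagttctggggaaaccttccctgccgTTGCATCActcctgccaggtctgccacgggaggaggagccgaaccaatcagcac
Slc7a11, the cystine carrier, fell by 0.75 (edgeR FDR = 0.020) and Chac1, which degrades glutathione, fell by 0.63 (edgeR FDR = 5.3e-04), both with overlapping groups.

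Genes of protein folding and disposal that passed the test were mostly lower at 24 h. Among 28 chaperones and unfolded-protein-response genes of the endoplasmic reticulum 17 fell and none rose, with a median of -0.29. Hspa5, the main chaperone of this compartment, was at 4023, 4765 and 5883 CPM at 6 h and 2634, 3234 and 3569 CPM at 24 h (-0.66), without overlap. Manf (-0.70), Selenos (-0.65) and Ern1 (-0.56) were the others with the largest falls. Of 37 proteasome subunits and assembly genes 16 fell and 3 rose (median -0.20). Vehicle medians in the fit over 30 libraries were -0.26 for this list and -0.21 for the endoplasmic reticulum genes. At the lower doses they were -0.20 and -0.30. Psmd6, of the regulatory particle, fell by 0.56 without overlap, and Psmb8, an interferon-inducible subunit, rose by 0.75. Among 24 heat shock proteins 11 were lower and 4 higher, while the list's median was 0.04 and changed sign under 3 of 29 settings. The mitochondrial chaperones Hspa9 (297, 336 and 407 CPM to 196, 210 and 220 CPM, -0.72), Hspd1 (-0.52) and Hspe1 (-0.53) fell without overlap, and Hspa1b rose by 0.59.

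Among 24 targets of NRF2, the regulator of antioxidant genes, 14 fell and 5 rose (median -0.25). Their median was -0.26 at the lower doses and -0.29 in vehicle in the fit over 30 libraries. Gclc, which catalyses the first step of glutathione synthesis, went from 35.9, 49.9 and 73.4 CPM to 13.5, 25.5 and 35.0 CPM (-0.98). Txnrd1, the cytosolic thioredoxin reductase, went from 113, 130 and 160 CPM to 78.3, 93.6 and 97.7 CPM (-0.58). The 2 genes had no overlap between times, while the exporter Abcc4 (-0.87) and glutathione reductase Gsr (-0.86) did.

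Lysosome and autophagy genes were higher at 24 h. Of 49 tested, 31 rose and 1 fell, with a median of 0.27. The median was 0.26 at the lower doses and 0.30 in vehicle in the fit over 30 libraries. Map1lc3b, whose product coats autophagosome membranes, was at 198, 244 and 284 CPM at 6 h and at 405, 484 and 531 CPM at 24 h (1.01 ± 0.08). Ulk1, the kinase that starts autophagy, went from 32.0, 37.0 and 50.1 CPM to 69.2, 96.3 and 105 CPM (1.25). Gabarapl1, a relative of Map1lc3b, went from 72.9, 87.7 and 105 CPM to 152, 168 and 186 CPM (0.90). No 24 h library of these 3 genes overlapped with 6 h, and 11 members of the list rose in this way. Further rises were those of the autophagy receptor Nbr1 (1.13), the cathepsin Ctsf (1.11), Atg12 (0.90) and Atg13 (0.82). The gene that fell, named after its value was seen, was the cathepsin Ctsl (253, 418 and 504 CPM to 209, 241 and 279 CPM, -0.77).

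Genes that restrain the cell cycle and targets of FoxO factors changed in both directions, with 13 of 28 higher and 8 lower. Their median was 0.18 at the lower doses and 0.26 in vehicle in the fit over 30 libraries. Cdkn1b, an inhibitor of cyclin-dependent kinases, was at 119, 158 and 240 CPM at 6 h and 388, 519 and 624 CPM at 24 h (1.69 ± 0.10). Pik3ip1, an inhibitor of PI3-kinase, rose by 1.57 and the inhibitor Cdkn2b by 1.44, both without overlap. Ccnd1, the cyclin of early G1, went the other way, from 81.7, 127 and 171 CPM to 44.4, 52.0 and 54.9 CPM (-1.27). In bulk samples such as these, fewer cells of a kind and less RNA per cell cannot be told apart.

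Mitotic genes were higher more often than lower, at 25 of 65 against 11, with a median of 0.10. In vehicle the median was 0.19 in the fit over 30 libraries, against 0.08 at the lower doses. Ccnb2, a mitotic cyclin, went from 20.5, 30.2 and 41.9 CPM to 44.0, 57.8 and 79.5 CPM (0.95), and the kinetochore gene Spc24 from 34.3, 45.7 and 65.2 CPM to 68.7, 81.2 and 99.9 CPM (0.81). Kif2c rose by 0.87 and the phosphatase Cdc25c by 0.84. Of 48 DNA replication genes, 9 rose and 7 fell, both shares below those over all genes. E2f8 (-0.82), Pole2 (-0.71), Ccne1 (-0.66) and E2f2 (-0.60) had the largest changes, and their groups overlapped. Among 28 targets of p53, 8 rose and 8 fell. In the fit over 30 libraries their median was -0.11 at the lower doses and -0.35 in vehicle. Mdm2 changed by 0.41 at the lower doses and by -0.49 in vehicle (edgeR FDR of the difference = 0.060). Bbc3 changed by 0.39 and by -0.46 (edgeR FDR = 0.081). Both were named after their values were seen, and few genes passed that test without replicate 2 of vehicle at 24 h (1 gene).

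Clock genes were found among those that changed. Of 18 tested, 10 rose and 3 fell, with a median of 0.41. The median was 0.41 at the lower doses and 0.18 in vehicle in the fit over 30 libraries, a difference that was not tested. The vehicle median rests on single libraries. It was -0.009 without replicate 1 of vehicle at 6 h, 0.26 without replicate 2 at 6 h and -0.02 without replicate 1 at 24 h. Tef, a transcription factor driven by the clock, was at 56.2, 77.2 and 91.2 CPM at 6 h and 151, 179 and 211 CPM at 24 h (1.21 ± 0.09). Per3, of the negative limb, went from 14.4, 23.6 and 29.2 CPM to 31.9, 46.0 and 58.9 CPM (1.07), and Nr1d2, a repressor of Arntl, from 23.9, 40.5 and 51.4 CPM to 52.2, 74.5 and 99.9 CPM (0.87). All 3 genes lay higher in every 24 h library. The genes of the positive limb, Clock (-0.41) and Arntl (-0.46), fell with overlapping groups, and Csnk1e, a kinase of PER proteins, fell by 0.53. The time of day at harvest is not given in the sources used here, and its part in these values was not tested.

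Promoter stretches of 3 rising clock genes are shown because clock factors act through the E-box (CACGTG) and the D-box (TTANGTAA). In the same windows the E-box was found in 4 of 14 clock genes (Bhlhe41, Cry1, Per1 and Tef) and in 6.86% of all promoters, and the D-box in 1 of 14 (Per3) and in 2.44% of all promoters. Per1 was chosen for display after its value was seen. Capitals mark the matches in Per3 (chr4:151044794-151044893, minus, 2 D-boxes), Tef (chr15:81802499-81802598, plus, 1 E-box) and Per1 (chr11:69098736-69098835, plus, 1 E-box).
Per3: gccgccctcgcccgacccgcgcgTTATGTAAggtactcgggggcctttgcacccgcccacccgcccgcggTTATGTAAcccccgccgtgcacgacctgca
Tef: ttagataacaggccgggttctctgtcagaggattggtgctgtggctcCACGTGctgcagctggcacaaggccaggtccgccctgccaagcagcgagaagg
Per1: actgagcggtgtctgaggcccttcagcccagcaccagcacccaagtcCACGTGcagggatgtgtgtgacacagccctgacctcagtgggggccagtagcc
Per1 rose by 0.42 (edgeR FDR = 0.014) with overlapping groups, and Cry1, which holds an E-box too, did not pass the test (-0.15, edgeR FDR = 0.476).

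Genes of the extracellular matrix changed in both directions. Among 37 matrix glycoproteins and proteoglycans 23 rose and 8 fell (median 0.30). The median was 0.29 at the lower doses and 0.57 in vehicle in the fit over 30 libraries, a difference that was not tested. Sparc, an abundant collagen-binding glycoprotein, went from 1932, 2583 and 3139 CPM to 3328, 3600 and 3748 CPM (0.47). Lox, which crosslinks collagen and elastin, went from 641, 968 and 1112 CPM to 1320, 1474 and 1821 CPM (0.70), and osteoglycin (Ogn) from 59.2, 79.2 and 94.7 CPM to 153, 186 and 256 CPM (1.29). For these 3 genes every 24 h library was above every 6 h library. The large proteoglycan versican (Vcan) fell from 151, 196 and 231 CPM to 69.6, 86.3 and 98.5 CPM (-1.23), and tenascin C (Tnc) from 242, 291 and 380 CPM to 112, 134 and 191 CPM (-1.09). Of 23 matrix proteases and inhibitors 12 rose and 8 fell. Mmp13, a collagenase, went from 144, 172 and 301 CPM to 389, 497 and 607 CPM (1.37), Mmp11 rose by 1.68 and Mmp10 fell by 1.55, all without overlap. Of 24 collagens 8 rose and 5 fell. Col4a6 (1.23) and Col8a2 (1.17), both network-forming collagens, rose without overlap and Col6a3 fell from 157, 203 and 232 CPM to 83.5, 103 and 117 CPM (-0.94).

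Acute-phase proteins, chemokines and related genes changed in both directions. Of 23 tested, 13 rose and 8 fell, with a median of 0.76. Cxcl12, a chemokine of stromal cells, was at 497, 549 and 815 CPM at 6 h and 1588, 1901 and 2089 CPM at 24 h (1.67 ± 0.08). Saa3, an acute-phase serum amyloid, went from 270, 346 and 515 CPM to 799, 942 and 1144 CPM (1.40), and complement C3 from 33.5, 41.5 and 69.4 CPM to 87.5, 127 and 167 CPM (1.46). Lipocalin 2 (Lcn2, 1.33), Cxcl5 (1.75) and Il1rn (1.07), which blocks the interleukin 1 receptor, also rose without overlap. The genes that fell included Il1rl1, the receptor of interleukin 33 (302, 371 and 639 CPM to 141, 161 and 247 CPM, -1.27), the chemokine Ccl2 (-1.10), Il6 (-0.88) and the cyclooxygenase gene Ptgs2 (-0.84). In the fit over 30 libraries the list's median was 0.77 at the lower doses and -0.19 in vehicle. Without replicate 3 of vehicle at 6 h the vehicle median was 0.195. The difference between these medians was not tested. No member passed the test of the difference from vehicle.

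Interferon-stimulated genes were higher at 24 h, at 22 of 41 against 4 lower, with a median of 0.39. In the fit over 30 libraries the median was 0.38 at the lower doses and 0.09 in vehicle, a difference that was not tested. Irf1, a transcription factor of the response, went from 29.9, 45.6 and 59.8 CPM to 66.6, 86.7 and 100.4 CPM (0.87). H2-K1, a class I antigen-presenting molecule, went from 42.3, 54.1 and 80.9 CPM to 83.6, 101 and 115 CPM (0.84). These 2 genes and Ifi27 (0.68) did not overlap between times. Ifit1 was lower in level, at 3.19, 6.19 and 14.8 CPM and 7.62, 17.9 and 21.3 CPM (1.23), with groups that overlapped.

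The Ifit genes and Bst2, all induced by interferon, are shown with their promoters because the first rose and Bst2 fell (-0.68, edgeR FDR = 0.0075; chosen after its value was seen). The interferon element searched was GAAA, any pair of bases, then GAAA, on both strands, with overlapping matches merged. It was found in 14 of 33 members, in 3.46% of all promoters and in 3.12% of those of tested genes. Capitals mark the matches in Ifit3b (chr19:34607741-34607840, plus), Ifit3 (chr19:34583345-34583444, plus), Ifit1 (chr19:34640749-34640848, plus) and Bst2 (chr8:71537545-71537644, minus).
Ifit3b: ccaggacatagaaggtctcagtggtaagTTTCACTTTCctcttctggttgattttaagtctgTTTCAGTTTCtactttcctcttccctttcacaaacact
Ifit3: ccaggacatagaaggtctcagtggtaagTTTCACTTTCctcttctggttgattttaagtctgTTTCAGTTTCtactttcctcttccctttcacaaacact
Ifit1: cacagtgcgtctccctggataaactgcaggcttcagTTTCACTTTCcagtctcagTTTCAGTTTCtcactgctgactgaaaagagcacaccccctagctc
Bst2: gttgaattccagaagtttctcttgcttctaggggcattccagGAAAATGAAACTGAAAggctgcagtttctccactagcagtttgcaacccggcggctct
Ifit3b (2.62 ± 0.50) and Ifit3 (1.39 ± 0.22) have identical letters in this stretch and near-identical transcripts, so reads can be split between them and their separate values are uncertain. Ifit3b had at most 1.49 CPM at 6 h and 7.10 CPM at 24 h.

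Immediate-early genes, which respond to growth factors within minutes, fell more often than they rose, at 18 of 36 against 9 (median -0.24). In the fit over 30 libraries the median was -0.25 at the lower doses and -0.75 in vehicle, a difference that was not tested. The vehicle median was -0.51 without replicate 3 of vehicle at 6 h. The change of 4 members differed from that in vehicle, against 0.172% of all genes tested. One of these was Ier2 (difference 1.02, edgeR FDR = 0.089). Over all genes that test passed 22, but only 3, 1 and 4 without replicates 1, 2 and 3 of vehicle at 24 h, so the count of members is not stable. Maff fell from 81.2, 93.0 and 127 CPM to 44.6, 55.8 and 69.2 CPM (-0.79), Nr4a2 fell by 0.76 and Klf6 by 0.54, all without overlap. Junb, a subunit of AP-1, went the other way, from 88.5, 142 and 163 CPM to 207, 243 and 333 CPM (0.90). Fosl2 (0.44) and Ier2 (0.81) also rose without overlap. Spry4 (-1.43), Egr2 (1.30) and Dusp4 (-0.93) had larger changes at low levels, with groups that overlapped.

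Genes of the respiratory chain were examined by the genome that encodes them. Of 76 nuclear-encoded subunits 34 rose and 8 fell, with a median of 0.13. Ndufa6, of complex I, went from 146, 181 and 215 CPM to 231, 262 and 329 CPM (0.60), and 9 members rose without overlap. Of 8 tested protein genes of the mitochondrial genome 4 fell and 2 rose (median -0.26). In vehicle the median of these genes was 0.08 in the fit over 30 libraries, and no member passed the test of the difference. That vehicle median was 0.26 without replicate 3 of vehicle at 6 h and -0.11 without replicate 3 at 24 h. The mitochondrial mt-Nd2 was at 12210, 13690 and 16790 CPM at 6 h and 7798, 9803 and 12120 CPM at 24 h (-0.52), without overlap, and mt-Nd4 rose by 0.37 with overlap. The lower total share of mitochondrial reads at 24 h stands beside these values.

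Glucose and lipid metabolism changed by gene rather than by list. Among 22 glycolysis genes 9 fell and 5 rose. Hk2, the hexokinase of growing cells, went from 142, 152 and 173 CPM to 65.8, 88.0 and 101 CPM (-0.85), and the lactate carrier Slc16a1 fell by 0.86, both without overlap. Ldhb, the lactate dehydrogenase subunit favouring pyruvate, rose from 21.9, 28.6 and 35.2 CPM to 70.0, 83.6 and 108 CPM (1.62). Fatty acid synthesis genes were 5 higher and 5 lower of 14, with Me1, which supplies NADPH, at 63.6, 80.9 and 106 CPM and 133, 147 and 169 CPM (0.84), and the desaturase Scd1 lower (-0.51). Of 24 sterol synthesis genes 6 rose and 4 fell, led by Lss (0.78) and Fdft1 (0.62), and of 23 genes of lipid use and storage 10 rose and 3 fell, with Fabp5 at 0.68 and Pparg at -0.99. Of 19 amino acid transporters 5 rose and 5 fell, among them Slc7a2 (1.10).

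Growth factor and contractile genes were also mixed. Among 14 genes of the insulin-like growth factor axis 6 rose and 5 fell. Igfbp4 went from 340, 449 and 576 CPM to 719, 916 and 974 CPM (0.94), opposite to Igfbp2, and Stc1 from 749, 885 and 1040 CPM to 398, 504 and 582 CPM (-0.82). Genes of TGF-β and BMP signalling were 11 higher and 11 lower of 30, with Tgfb2 (1.54) and Bmp4 (1.53) up and the inhibitor follistatin (Fst, 179, 235 and 284 CPM to 70.4, 96.5 and 122 CPM, -1.33) down. Of 29 YAP targets and contractile genes 15 fell and 8 rose (median -0.19). Mylk, the myosin light chain kinase, rose from 70.5, 112 and 187 CPM to 293, 318 and 423 CPM (1.55), and transgelin (Tagln) fell from 28.9, 44.6 and 82.5 CPM to 13.1, 18.4 and 22.3 CPM (-1.40). Of 17 hypoxia-inducible genes 5 rose and 5 fell, with adrenomedullin (Adm) at 1.74 and Vegfa at -0.92. Their median was 0.09 at the lower doses and -0.21 in vehicle in the fit over 30 libraries, a difference that was not tested. Of 16 NF-κB genes 4 rose and 2 fell, Tnip1 by 0.71.

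Few genes of feeding control were expressed. Of 23 listed, 6 passed the filter on low counts, Agrp reached at most 1.30 CPM and Pomc at most 1.37 CPM, and 3 passed the test. Stat3, the transcription factor downstream of the leptin receptor, went from 193, 255 and 290 CPM to 362, 431 and 510 CPM (0.84) and its feedback inhibitor Socs3 from 8.69, 21.2 and 32.0 CPM to 32.5, 41.9 and 62.9 CPM (1.07), both without overlap. Ptpn1, a phosphatase of the same pathway, was 0.13 higher with overlapping groups, a call that several other settings did not keep. Of 27 endocannabinoid genes and proposed CBD targets 12 were tested, and 4 rose and 3 fell. Their groups all overlapped. The synthesis enzyme Daglb rose by 0.73 and the hydrolase Naaa by 0.80, the channel Trpv4 rose by 0.61, and the nuclear receptor Pparg fell by 0.99, each at a median of at most 9.82 CPM at either time. The nucleoside transporter Slc29a1 fell from 132, 155 and 186 CPM to 104, 127 and 140 CPM (-0.36).

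The change over time was next compared among the 3 doses. Tested at each dose alone, 3576 genes (29.1%) passed at the lowest dose, 3643 (29.6%) at 0.75 µM and 3274 (26.6%) at the highest of the 3, and 1678 genes passed at all 3 doses. The log2 changes of 12790 genes correlated across genes with Pearson's r between 0.669 and 0.721 for pairs of doses, which is a description, since genes are not independent. The change differed between doses for 1 gene (0.00813%, edgeR quasi-likelihood test of dose by time) at the same FDR, and 542 genes had an unadjusted p under 0.05.

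That gene was Elp6, a subunit of the Elongator complex that modifies transfer RNA (edgeR FDR = 8.9e-05). In order of rising dose, its level at 6 h was 124 ± 28.1 CPM (SD, n = 3), 115 ± 6.37 and 101 ± 7.13 CPM. At 24 h it was 26.5 ± 5.27, 75.9 ± 15 and 77.9 ± 9.67 CPM. All 3 libraries of 0.325 µM at 24 h, at 22.6, 24.3 and 32.5 CPM, were below every other library of the comparison. In the same order, the log2 change was -2.24 ± 0.18 (SE), -0.60 ± 0.17 and -0.38 ± 0.17, the last not past the test (edgeR FDR = 0.11).

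To see which changes also occurred without CBD, all 30 libraries were fitted together. In vehicle, 3411 of 12790 genes (26.7%) changed between 6 h and 24 h, and at 3 µM 2129 (16.6%, or 2051 genes without replicate 1 at 24 h), each with 3 libraries per time against 9 at the lower doses. The log2 changes at each lower dose correlated across genes with those in vehicle at r between 0.638 and 0.676. The change at the lower doses, averaged over the 3, differed from the change in vehicle for 22 genes (0.172%), more positive for 15 (0.117%) and more negative for 7 (0.0547%), with 944 genes at an unadjusted p under 0.05. This count is set by single libraries: it was 1 without replicate 2 of vehicle at 24 h and 46 without replicate 1 of vehicle at 6 h. Dusp1 passed the test with any library left out, whereas the next 5 genes by p did not pass without replicate 2 of vehicle at 24 h.

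Dusp1, a phosphatase that switches off MAP kinases and is itself an immediate-early gene, had the smallest p. In vehicle its level was 113 ± 28.4 CPM (SD, n = 3) at 6 h and 43.0 ± 4.50 CPM at 24 h, a change of -1.40. At the lower doses it went from 30.8, 60.9 and 79.1 CPM (lowest, median, highest of 9) to 65.4, 89.9 and 107 CPM, a change of 0.52. The difference was 1.92 ± 0.27 (SE, edgeR FDR = 1.5e-04). At 6 h all 3 vehicle libraries (112, 85.4 and 142 CPM) lay above the 9 treated ones, and at 24 h all 3 (48.2, 40.5 and 40.4 CPM) lay below them.

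The next 5 by p were the immediate-early gene Junb, the stress gene Gadd45g and 3 others. Junb changed by 0.89 at the lower doses and by -0.28 in vehicle (difference 1.17, edgeR FDR = 0.032). Gadd45g, a growth-arrest gene, changed by 0.25 at the lower doses and by -0.89 in vehicle (difference 1.13, edgeR FDR = 0.049). At the lower doses it went from 27.4, 50.3 and 74.3 CPM to 54.3, 57.9 and 65.15 CPM. In vehicle it was at 60.6, 61.9 and 120.5 CPM at 6 h and at 36.8, 44.8 and 53.2 CPM at 24 h. At 6 h only replicate 3 of vehicle lay above the treated range. Zfas1, a non-coding host of small nucleolar RNAs, changed by 0.89 and by -0.05 in vehicle, where it was at 106 ± 21.2 CPM and 103 ± 8.47 CPM (difference 0.94, edgeR FDR = 0.031). Elp6 changed by -1.08 and by -2.41 in vehicle (difference 1.33, edgeR FDR = 0.031), so that its fall in vehicle was nearer to that at 0.325 µM. Ndrg1, a differentiation and stress gene, differed by 0.98 (edgeR FDR = 0.032). It went from 52.0, 69.3 and 85.9 CPM to 80.9, 95.5 and 101 CPM at the lower doses. In vehicle it went from 133 ± 36.6 CPM (SD, n = 3) to 86.2 ± 8.87 CPM.

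**Figure D5:**
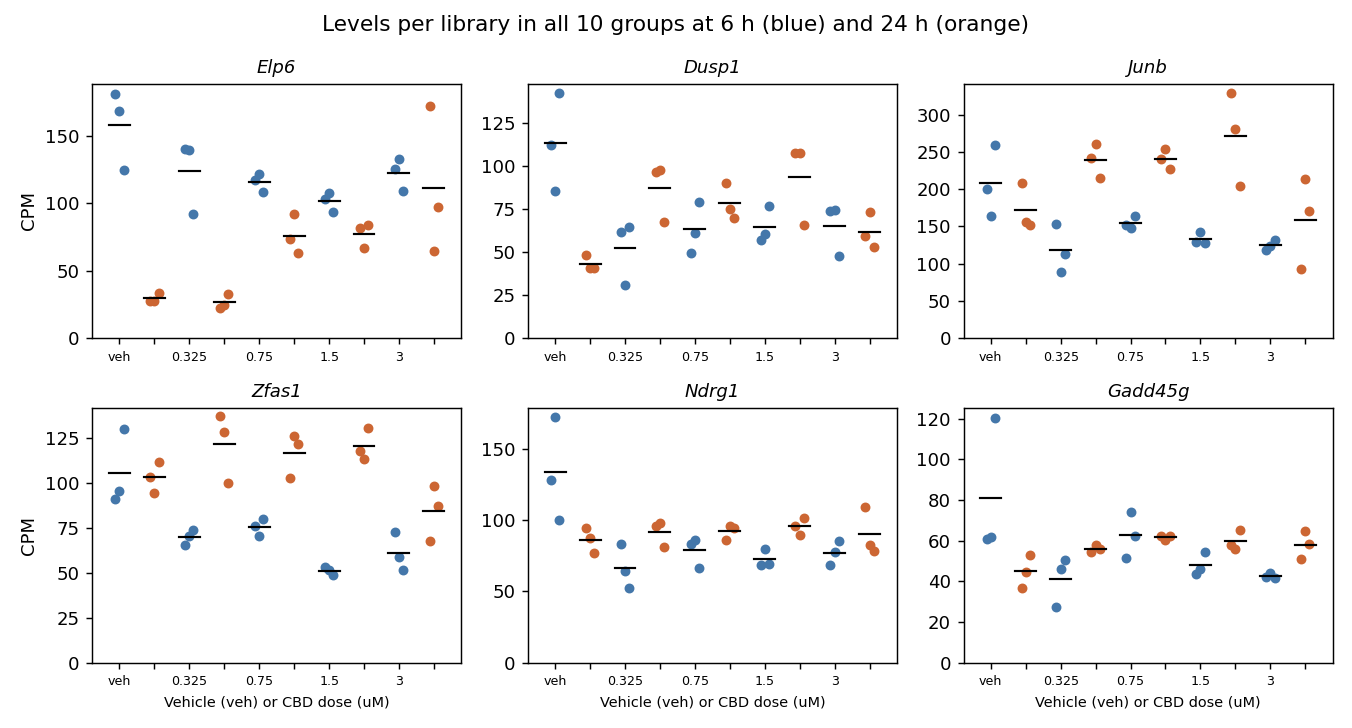
Level in CPM of Elp6, Dusp1, Junb, Zfas1, Ndrg1 and Gadd45g in vehicle and at each CBD dose, at 6 h (blue) and 24 h (orange), each point a library and each line the mean of 3. Dusp1 falls over time in vehicle (113 to 43.0 CPM) but is higher at 24 h at the lower doses, and Elp6 is lowest at 24 h in vehicle and at 0.325 µM.

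Against 3 µM CBD, the change over time at the lower doses differed for 306 genes (2.39%), more positive for 142 (1.11%) and more negative for 164 (1.28%), and 2129 genes had an unadjusted p under 0.05. Leaving out 1 library of 3 µM took this count from 0 (replicate 1 at 6 h or at 24 h) to 1115 (replicate 2 at 24 h), so the number itself is not stable. The 6 genes with the smallest p did not pass without replicate 1 of 3 µM at either time. Oip5, which loads centromeric histone, changed by 0.86 at the lower doses and by -1.31 at 3 µM, where it was at 6.91 ± 2.27 CPM (SD, n = 3) and 2.81 ± 0.340 CPM (difference 2.17, edgeR FDR = 0.045). The cytosolic isocitrate dehydrogenase Idh1 rose by 0.89 at the lower doses, and at 3 µM went from 52.0 ± 14 to 39.8 ± 8.82 CPM (difference 1.27, edgeR FDR = 0.057). Nbl1, a BMP antagonist, went from 81.9, 88.7 and 99.2 CPM to 133, 148 and 173 CPM at the lower doses and from 107 ± 8.74 to 103 ± 16.4 CPM at 3 µM (difference 0.78). The transcription factor Zbtb17 differed by 1.2. The deubiquitinase Usp34 had a change of -0.03 at the lower doses and of 0.79 at 3 µM (difference -0.82), and the gene known only as ENSMUSG00000119584 differed by -1.40.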

How the data were processed

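The authors made 3′ mRNA-Seq libraries (QuantSeq FWD) from RNA extracted with TRIzol (as the labels name it) and checked reads with FastQC 0.11.9, trimmed them with Flexbar, aligned them with STAR 2.7.5c to GRCm39 and counted reads per Ensembl gene with HTSeq 1.99.2. The strand setting is not given in the sources used here, and reads of overlapping or antisense genes may be mixed. The deposited values are raw read counts per gene and library for 56941 genes, with no normalization, and HTSeq's summary lines of unassigned reads were kept out of library sizes. Reads outside genes came to 19.8% on average at 6 h and 19.5% at 24 h, as a share of reads on genes, outside genes or ambiguous between genes. The submitters' processing notes also name DESeq2 (given as version 3.16). Symbols, positions and gene classes came from a GRCm38 annotation by gene ID, which gave a symbol to 51948 genes. Promoters came from RefSeq GRCm38.p6.

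The tests used edgeR 4.0.16 under R 4.3.3: genes passing filterByExpr, TMM factors, and a quasi-likelihood fit with dose and time over the 18 libraries (12295 genes). Vehicle and 3 µM were compared in a fit of all 30 libraries (12790 genes) with a mean per group. Library measures used exact permutations of time within dose. The threshold was a Benjamini-Hochberg FDR of 0.1. CPM are relative to TMM-scaled library totals of reads on genes. Those of the cell type markers in the check of the labelled cell type, and of Agrp and Pomc, are relative to unscaled totals. Replicate pairs of a group differed by more than counting error (chi-square per gene between 2.18 and 9.50 over 18 pairs), and the biological coefficient of variation was 0.152.

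Genes named were the 12 largest rises and 12 largest falls among genes with a symbol, past the threshold, at a mean of at least 10 CPM and without overlap between times, the 4 members of each list with the largest change, and up to 6 genes per test of a difference. List members that define a list were also named. The members and lists were chosen with earlier results of these data known, and Elp6, Mmp13 and Saa3 are among the genes whose values were known. The split by gene class, the protein-coding falls and the match of pseudogenes to transcripts were added after seeing the data. Alternatives were DESeq2 1.42.0, other size factors, filters, covariates and thinned counts, a fold threshold, and leaving out each library. The fits were tested on simulated data.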

Additional observations from a re-analysis of the deposited data

Results flagged for a closer look

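Differences between groups in the change from 6 h to 24 h were the reason for each entry here, by the edgeR quasi-likelihood test of the difference itself. Each group held 3 libraries, too few for the test of a single outlying value.

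Among the lower doses 1 gene differed, Elp6, with an adjusted p of 8.9e-05. Its fall was largest at 0.325 µM.

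Against vehicle 22 genes differed. The 6 with the smallest p were Dusp1, with a difference of 1.92 in log2 change, Zfas1 (0.94), Elp6 (1.33), Junb (1.17), Ndrg1 (0.98) and Gadd45g (1.13). For all 6 the change at the lower doses was the more positive one.

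Against 3 µM CBD 306 genes differed. None passed without replicate 1 of 3 µM at 24 h, a library that stood apart from its group, and none without replicate 1 at 6 h. Without replicates 2 and 3 of 3 µM at 6 h 2 and 17 genes passed. Without replicates 2 and 3 at 24 h 1115 and 12 passed. Of the 306 genes, the 6 with the smallest p were ENSMUSG00000119584 (-1.40), Oip5 (2.17), Nbl1 (0.78), Zbtb17 (1.2), Usp34 (-0.82) and Idh1 (1.27).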

How the results depend on the processing

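The count of genes that changed over time (6646) lay between 6371 and 6795 when each library was left out in turn, with 3123 to 3368 higher and 3166 to 3485 lower. Against a fold of 1.5 it was 1382 (643 higher and 739 lower). At single doses the counts lay between 2466 and 3667 (0.325 µM), 2509 and 3893 (0.75 µM) and 2350 and 3523 (1.5 µM). The test of dose by time gave 5 genes with no filter on low counts, and between 1 and 3 with a library left out (3 without replicate 3 of 0.75 µM at 6 h). The difference from vehicle (22 genes) was 73 with no filter, 5 with thinned counts and 41 with DESeq2. With a library left out it lay between 1 and 46. It was at or below 14 without each of replicate 3 of vehicle at 6 h (10), any vehicle replicate at 24 h (3, 1 and 4), replicate 2 of 0.75 µM at 6 h (6), replicates 1 and 3 of 1.5 µM at 24 h (11 and 14), replicate 3 of 0.75 µM at 24 h (6) and replicates 1 and 2 of 0.325 µM at 24 h (9 and 8), and above 22 by over 1.5 times without replicate 1 of vehicle at 6 h (46) or of 0.325 µM at 6 h (39). The difference from 3 µM (306 genes) was 604 with no filter, 153 with thinned counts, 565 with DESeq2, 7 with a covariate for reads outside genes and 594 without the vehicle libraries. With a library left out it lay between 0 and 1115. It was 0, 2 and 17 without replicates 1, 2 and 3 of 3 µM at 6 h and 0, 1115 and 12 without those at 24 h, with 1720 and 1394 genes at an unadjusted p under 0.05 by edgeR where it was 0. Without single libraries of the lower doses at 6 h it was 130 and 138 (replicates 2 and 3 of 1.5 µM), 68, 42 and 488 (replicates 1, 2 and 3 of 0.75 µM) and 514 and 132 (replicates 1 and 2 of 0.325 µM). Without those at 24 h it was 59 and 200 (replicates 1 and 3 of 1.5 µM), 161, 167 and 53 (replicates 1, 2 and 3 of 0.75 µM) and 64 and 25 (replicates 1 and 2 of 0.325 µM). The cause of these moves was not tested.

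The 3 µM library at 24 h that stood apart was left out in an alternative added after seeing the data. No value reversed. Of 1676 values of named genes under the alternatives other than leaving out a library, 70 no longer passed, most of them under the fold of 1.5, and 30 of 2808 did not with a library left out, among them Ptpn1, Dram1, Psmb7 and mt-Nd6. Of the values of genes named for a difference from vehicle or 3 µM, 8 of 94 no longer passed under the alternatives and 32 of 288 with a library left out. Cox7c did not pass with DESeq2, nor Slc7a11 and Psmb7 with the log2 reads on genes as a covariate. The median of a list changed sign under some settings for the DNA replication, sterol synthesis, p53, insulin-like growth factor, heat shock and endocannabinoid lists (16 of 29 settings for the last). The depth, at most 4420675 reads on genes, limits genes under about 10 CPM. No paired analysis was possible because the labels carry only a running number over all libraries; the replicate numbers used here follow that order and tie no library to one of another group.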
